A study of Mus musculus with 7 samples.

Results

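The genes of the interleukin receptors were examined for binding of RelB and RelA, DNA-binding subunits of the transcription factor family NF-kB. A bound region counted as belonging to this gene family when the deposited annotation assigned it to a gene whose symbol starts with Il, a number and r, with the receptor antagonist Il1rn left out, and placed it at most 100 kb from the transcription start site (TSS). By this rule 276 of the 93611 regions in the table belonged to 35 receptor genes. The choice used names and distances and no measured value. A further 10 regions with such names lay beyond 100 kb and were left out. The farthest region inside the limit was 99966 bp upstream of Il7r, with 3.21 and 1.55 RPKM of RelB in WT at 0 h and 1 h, 3.90 RPKM of RelA in WT and 2.41 RPKM in RelBko, 2.67 and 0.282 RPKM of RelB in RelBko at 0 h and 1 h, and 0.417 RPKM of input. The nearest one outside it was 110633 bp downstream of Il3ra, with 7.98 and 6.85 RPKM of RelB in WT, 5.81 and 3.35 RPKM of RelA in WT and RelBko, and 0.184 RPKM of input. RPKM is the number of reads in a region scaled by its length and by the reads of the library, so it compares regions of different lengths.

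Chromatin immunoprecipitation followed by sequencing (ChIP-seq) recovers the DNA that a protein occupies. It was applied to bone marrow-derived dendritic cells (BMDCs) of C57BL/6 mice, antigen-presenting cells that were grown from marrow with GM-CSF and IL-4, the latter itself a ligand of one of the receptors described here. Wild-type cells (WT) and cells that lack RelB (RelBko) gave RelB libraries before stimulation (0 h) and after 1 h with lipopolysaccharide (LPS, a bacterial cell wall component) at 10 ng/mL, and RelA libraries after 1 h with LPS at the same dose. For the stimulus, the protocol text gives LPS but cites a catalogue item named as a CpG oligonucleotide, which signals through another receptor, so LPS is used here as the sample titles state it. The remaining library was input DNA, chromatin that was not immunoprecipitated, from WT cells with no time or treatment given. Every group held 1 library, so no difference below has a replicate check and none carries a p-value. How RelB was removed and how many animals were used is not given in the sources used here, and reads over the Relb gene do not test the genotype. RelA was not measured at 0 h in the libraries analysed here.

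Interleukin receptors are cell surface proteins that are built from a chain particular to a ligand and a signalling chain that several receptors share. Receptors of the IL-1 family and of the IL-17 family carry cytoplasmic adaptor domains that lead to NF-kB, whereas the chains that share the common gamma chain, the common beta chain, gp130 or class II chains signal through JAK kinases and STAT transcription factors. In dendritic cells such receptors read the cytokines of T cells, of the epithelium and of the cells themselves.

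The libraries held between 13188833 and 35064429 reads. In the WT ChIP libraries and in the RelA library of RelBko, 37.2% to 42.4% of the reads fell in the 93611 regions, against 7.41% and 4.62% for RelB in RelBko at 0 h and 1 h and 3.52% in the input. Binding near marker genes of cell types is no measure of their expression and does not check the cell type. All 8 dendritic cell markers had a region, with RelB in WT at 1 h from 49.6 to 155.9 RPKM and a median of 76.7 RPKM. Of the other lists, the medians over genes with a region were 40.0 RPKM for macrophages (3 of 4 names), 20.3 RPKM for T cells (3 of 4), 7.30 RPKM for B cells (3 of 4) and 2.92 RPKM for neutrophils (3 of 5), and the single mast cell gene with a region (of 3) had 8.74 RPKM.

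The promoters of 7 receptor genes are shown first, because their values span the patterns described below. Il21r holds the region with the highest signal in the family and Il6ra the next. Il4ra and Il2rg are bound at the promoter itself, with Il2rg having no other region. Il12rb2 and Il1rap gave more RelA than RelB at their promoters, and Il23r gained RelB inside the gene and not at its promoter. Each line gives the 250 bases before the TSS, 5′ to 3′ on the gene's own strand, from RefSeq on the build GRCm38.p6. The TSS used there may differ from that of the deposited annotation, and no sequence of a bound region is shown because their coordinates are in mm9, whose sequence was not used here. Capitals mark GGG followed, after any 5 bases, by CC, on either strand, the general form of an NF-kB (kappaB) site.
Il21r, chr7:125603179-125603428, plus strand: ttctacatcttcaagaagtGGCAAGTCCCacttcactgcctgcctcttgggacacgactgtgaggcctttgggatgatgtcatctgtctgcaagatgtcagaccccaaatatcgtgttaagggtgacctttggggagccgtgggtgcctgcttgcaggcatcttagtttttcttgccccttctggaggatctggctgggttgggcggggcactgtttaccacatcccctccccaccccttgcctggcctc
Il6ra, chr3:89913197-89913446, minus strand: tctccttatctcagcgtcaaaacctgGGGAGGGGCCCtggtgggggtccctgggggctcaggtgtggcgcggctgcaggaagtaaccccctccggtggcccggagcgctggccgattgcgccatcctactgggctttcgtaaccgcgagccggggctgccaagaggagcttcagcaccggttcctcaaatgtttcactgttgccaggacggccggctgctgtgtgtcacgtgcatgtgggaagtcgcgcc
Il4ra, chr7:125552021-125552270, plus strand: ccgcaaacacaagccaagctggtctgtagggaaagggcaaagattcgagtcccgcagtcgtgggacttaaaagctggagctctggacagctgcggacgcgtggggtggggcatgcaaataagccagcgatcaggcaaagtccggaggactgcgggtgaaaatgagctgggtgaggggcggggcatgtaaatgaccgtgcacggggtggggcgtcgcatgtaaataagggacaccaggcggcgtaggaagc
Il2rg, chrX:101268256-101268505, minus strand: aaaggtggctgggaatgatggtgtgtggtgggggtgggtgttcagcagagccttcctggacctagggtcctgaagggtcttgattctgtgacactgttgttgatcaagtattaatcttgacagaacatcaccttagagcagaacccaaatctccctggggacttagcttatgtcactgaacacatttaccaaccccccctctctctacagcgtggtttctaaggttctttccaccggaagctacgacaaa
Il1rap, chr16:26581455-26581704, plus strand: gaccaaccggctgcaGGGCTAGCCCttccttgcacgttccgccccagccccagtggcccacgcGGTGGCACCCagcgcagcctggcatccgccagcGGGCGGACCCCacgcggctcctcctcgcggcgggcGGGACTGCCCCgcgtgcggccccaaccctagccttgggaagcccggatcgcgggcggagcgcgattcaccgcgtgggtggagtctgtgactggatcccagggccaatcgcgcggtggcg
Il12rb2, chr6:67376189-67376438, minus strand: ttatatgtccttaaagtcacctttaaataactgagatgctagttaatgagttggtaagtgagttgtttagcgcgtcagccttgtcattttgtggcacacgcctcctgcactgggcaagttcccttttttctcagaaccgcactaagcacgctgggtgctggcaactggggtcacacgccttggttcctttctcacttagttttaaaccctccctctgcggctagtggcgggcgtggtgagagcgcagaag
Il23r, chr6:67491856-67492105, minus strand: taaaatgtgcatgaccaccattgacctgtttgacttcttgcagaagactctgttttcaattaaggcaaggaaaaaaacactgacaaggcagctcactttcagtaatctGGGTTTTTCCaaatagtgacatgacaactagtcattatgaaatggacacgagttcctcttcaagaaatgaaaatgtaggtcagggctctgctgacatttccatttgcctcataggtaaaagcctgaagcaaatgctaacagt

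The promoters of Il4ra, Il2rg and Il12rb2 held no match to this form in these 250 bases, those of Il21r and Il23r held 1 each, and that of Il1rap held 9, with overlapping matches and both strands counted. The match in the Il23r promoter reads GGGTTTTTCC. This pattern was found in 45.8% of all 32851 RefSeq promoters, and of the 34 promoters listed for 28 of the 35 receptor genes 14 did, or 41.2%. The tighter form, GGGA followed after any 2 bases by TTCC, all of whose matches are also matches of the general form, was found in 1 of the 34 receptor promoters and in 1.21% of all promoters. Other motifs searched on both strands were the AP-1 form TGANTCA (4 of 34, against 6.75% of all promoters), the PU.1 form GAGGAAGT (1 of 34, against 2.44%), the interferon response form of 2 GAAA copies with any 2 bases between them (0 of 34, against 2.98%) and the STAT form TTCNNNGAA (5 of 34, against 7.02%). A match is a run of letters and not a measured site, and the absence of one says only that these letters are not in this window.

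Regions of the receptor genes carried more signal than the typical region of the table in the WT ChIP libraries. Their median RelB signal in WT was 9.57 RPKM before and 12.1 RPKM after LPS, against 5.46 and 6.28 RPKM over all 93611 regions. For RelA it was 10.4 RPKM in WT and 10.4 RPKM in RelBko, against 5.89 and 5.43 RPKM. In the input the receptor regions had a median of 0.922 RPKM, close to the 0.903 RPKM of all regions. For RelB in RelBko the medians were 1.96 and 1.34 RPKM, against 1.49 and 1.06 RPKM over all regions. Here and in the shares below, all regions include those beyond 100 kb, which the receptor set leaves out. Of the 93611 regions, 82910 lay within that limit.

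Enrichment of a region required at least 2 RPKM and a value at least 2-fold that of the input, with 0.5 RPKM added to both. By this rule 239 of the 276 receptor regions (86.6%) were enriched for RelB in WT at 0 h, against 75.9% of all regions. At 1 h 254 were (92.0%), against 81.7%. For RelA, 246 were enriched in WT (89.1%, against 82.0%) and 239 in RelBko (86.6%, against 75.9%). With the RelB antibody in RelBko, 95 were enriched at 0 h (34.4%, against 24.1%) and 44 at 1 h (15.9%, against 6.36%). The receptor regions thus stood above the background share in all 6 ChIP libraries, those without RelB included. What the RelB antibody recovers in RelBko cells was not tested.

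**Figure D1:**
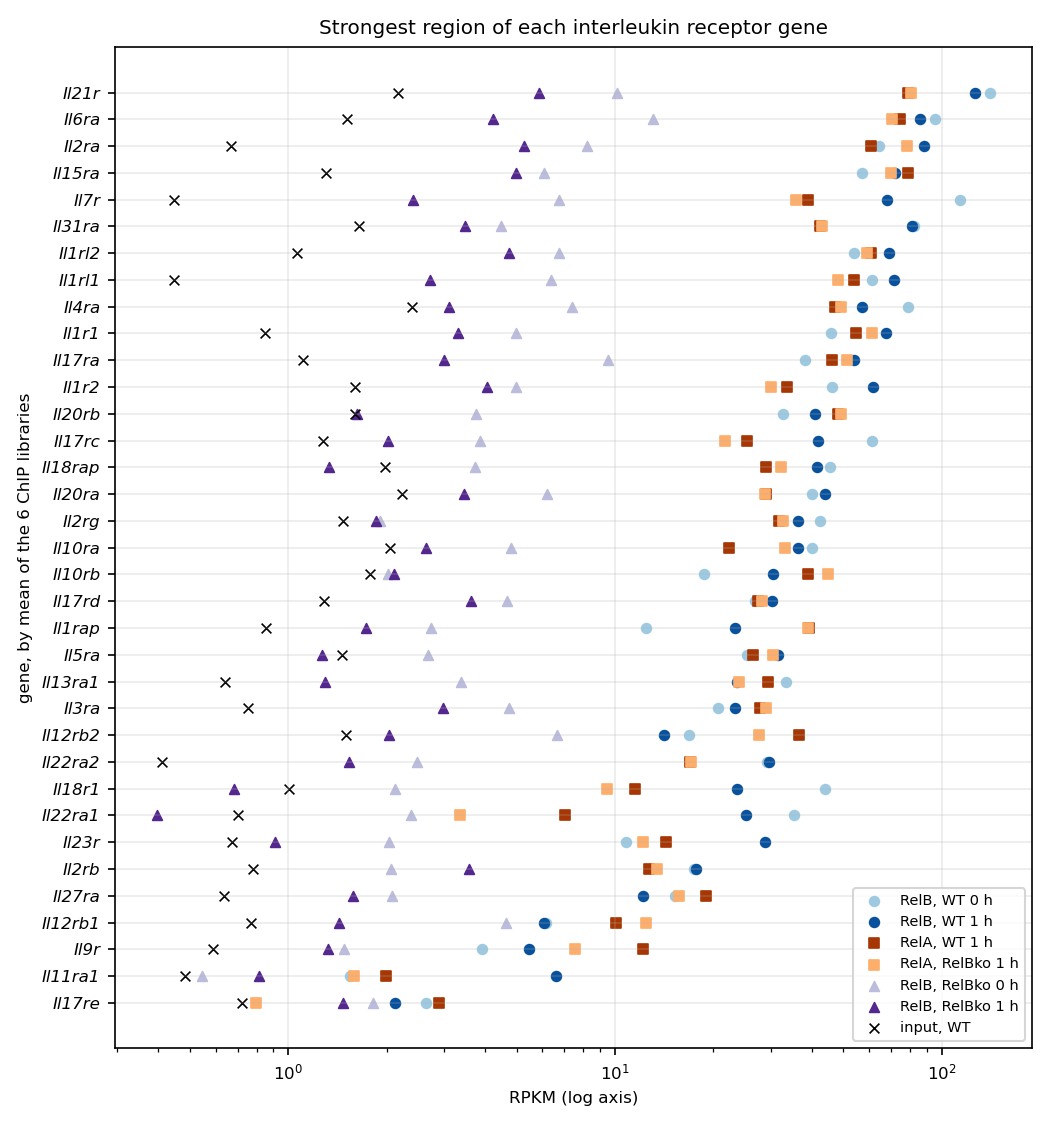
RPKM (log axis) of the region of highest mean signal of each of the 35 receptor genes, ordered by the mean of the 6 ChIP libraries, with 1 symbol for each of the 7 libraries. For most genes the WT RelB and both RelA libraries lie together and the RelB libraries of RelBko lie below them, from 141 RPKM of RelB in WT at 0 h for Il21r down to Il17re, whose 7 values lie between 0.724 and 2.90 RPKM.

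Receptor genes also held many regions each. They had a median of 6 regions, with a range from 1 to 24, against a median of 3 over all 18215 genes. Of the 35 genes, 11 (31.4%) had 10 regions or more, against 11.3% of all genes. Il7r had 24, Il1r2 20 and Il1r1 19, whereas Il2rg, Il27ra, Il11ra1 and Il17re had 1. Fewer of the receptor regions were promoter regions (20, or 7.25%, against 11.0% of all regions) and more were in introns (133, or 48.2%, against 44.1%), while 111 (40.2%, against 39.2%) lay between genes. Signal was higher near the start sites, with a median of 17.3 RPKM of RelB in WT at 1 h for the 27 regions within 1 kb, 15.7 RPKM for the 73 from there to 10 kb, 11.3 RPKM for the 143 from there to 50 kb and 4.66 RPKM for the 33 beyond. All regions of the table fell from 10.4 to 4.99 RPKM over the same distances.

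Several receptor genes are neighbours, so their regions share a stretch of chromosome. The IL-1 receptor genes Il1r2, Il1r1, Il1rl2, Il1rl1, Il18r1 and Il18rap lie side by side on chromosome 1, and 76 regions (27.5% of the family) lay there within 534 kb. Other neighbours were Il2ra and Il15ra (20 regions in 103 kb), Il4ra and Il21r (24 regions in 116 kb), Il12rb2 and Il23r (12 regions in 156 kb), Il22ra2 and Il20ra (11 regions in 106 kb) and Il17re and Il17rc (4 regions in 22.5 kb). Every region of the table inside these 6 stretches was assigned to one of these receptor genes. The assignment goes by distance, so a region between a pair of neighbours is not shown to act on the gene it is assigned to.

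**Figure D2:**
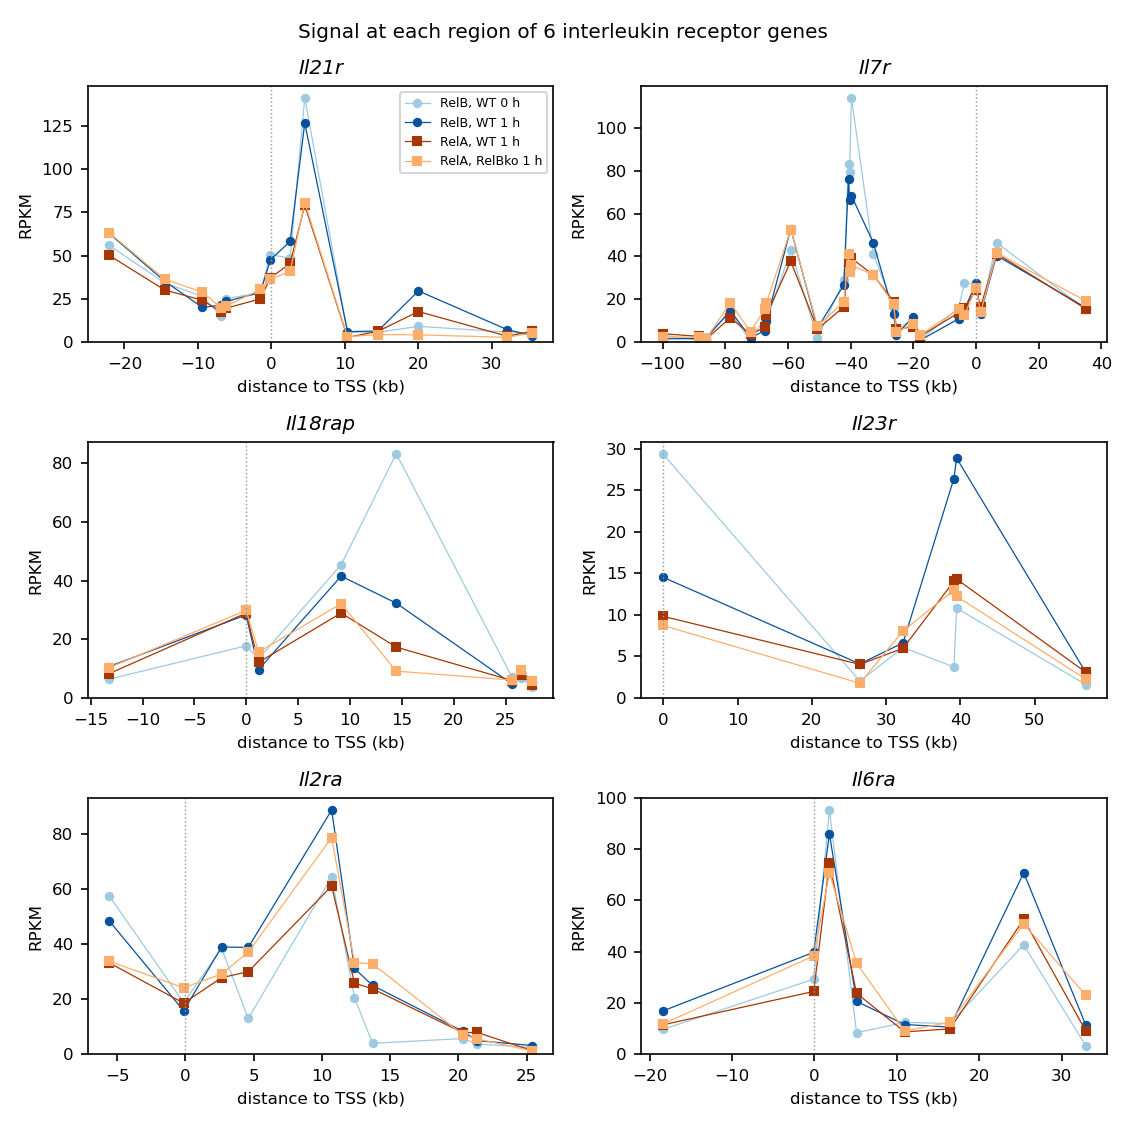
RPKM of each region of 6 receptor genes (Il21r, Il7r, Il18rap, Il23r, Il2ra and Il6ra, 1 panel each) against its distance from the TSS in kb, with RelB in WT at 0 h and 1 h and RelA at 1 h in WT and RelBko as separate symbols joined by lines. High and low regions alternate within a gene, as at Il7r, where the region 39715 bp upstream has 113.9 RPKM of RelB at 0 h and the one 99966 bp upstream has 3.21 RPKM.

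To describe each gene, its region with the highest mean RPKM over the 6 ChIP libraries was taken. Of the 35 genes, 29 had such a region with 20 RPKM or more in at least 1 WT ChIP library, and their values in every library follow by family. All positions are in mm9, counted from 1.

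The receptors that use the common gamma chain, with those of IL-4 and IL-13, held the highest single regions in the WT ChIP libraries and for RelA in RelBko. By median over regions the IL-17 receptors were higher for RelA, with 16.8 against 13.4 RPKM in WT and 19.9 against 13.2 RPKM in RelBko. For RelB in WT those medians were 10.4 against 13.4 RPKM at 0 h and 15.7 RPKM in both groups at 1 h. The Il21r gene encodes the receptor of IL-21, a cytokine of helper T cells. Its region at chr7:132751326-132751675, in an intron 4557 bp downstream of the TSS, had 141 and 127 RPKM of RelB in WT at 0 h and 1 h, 79.1 RPKM of RelA in WT and 80.6 RPKM in RelBko, 10.1 and 5.86 RPKM of RelB in RelBko at 0 h and 1 h, and 2.17 RPKM of input. Il2ra encodes the alpha chain of the IL-2 receptor (CD25), which mature dendritic cells are known to carry. At chr2:11574961-11575301, in an intron 10712 bp downstream of the TSS, WT cells gave 64.3 RPKM of RelB at 0 h and 88.6 RPKM after LPS, RelA was 61.0 RPKM in WT and 78.6 RPKM without RelB, RelB in RelBko 8.22 and 5.26 RPKM, and the input 0.667 RPKM. Il15ra encodes the chain that presents IL-15 to neighbouring lymphocytes. At chr2:11608251-11608599, 18495 bp upstream of its TSS and inside an intron of the annotation, RelA was 79.2 RPKM in WT and 70.2 RPKM in RelBko, RelB 57.0 and 72.2 RPKM in WT at 0 h and 1 h and 6.06 and 4.996 RPKM in RelBko, and the input 1.30 RPKM. Signal was thus within 1.5-fold between RelA and RelB in WT at 1 h for Il2ra and Il15ra, and higher for RelB at Il21r.

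Il7r encodes the alpha chain of the receptors of IL-7 and TSLP, the latter an epithelial cytokine that acts on dendritic cells. At chr15:9499262-9499431, between genes and 39715 bp upstream of the TSS, WT cells gave 114 RPKM of RelB at 0 h and 68.3 RPKM after LPS, RelA was 39.1 RPKM in WT and 35.8 RPKM without RelB, RelB in RelBko 6.73 and 2.41 RPKM, and the input 0.446 RPKM. Il4ra encodes the chain that receives IL-4 and IL-13, and its strongest region lay on the promoter shown above, at chr7:132695653-132696032, with 79.2 and 56.9 RPKM of RelB in WT at 0 h and 1 h, 47.1 RPKM of RelA in WT and 49.3 RPKM in RelBko, 7.37 and 3.10 RPKM of RelB in RelBko at 0 h and 1 h, and 2.39 RPKM of input. Over all 24 regions of Il7r the mean RelB in WT went from 25.5 RPKM at 0 h to 22.2 RPKM after LPS. Over all 10 regions of Il4ra it went the other way, from 23.1 to 24.6 RPKM. The single regions of Il7r and Il4ra described here both had more RelB at 0 h than after LPS. Their ratios of 1 h to 0 h were 0.5995-fold (95% interval 0.524 to 0.685) and 0.719-fold (95% interval 0.650 to 0.795). These intervals, and all others here, are exact Clopper-Pearson intervals of the ratio of reads at the 95% level. They cover counting error of reads alone and no variation between preparations, since each group held 1 library. Without molecular identifiers several reads can stem from 1 molecule, so the intervals may be too narrow even for that.

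Il13ra1, the partner of Il4ra for IL-13, had a region at chrX:33647483-33647837 (4443 bp upstream), where RelA was 29.5 RPKM in WT and 24.0 RPKM in RelBko, RelB 33.5 and 23.7 RPKM in WT at 0 h and 1 h and 3.38 and 1.30 RPKM in RelBko, and the input 0.641 RPKM. Il2rg encodes the common gamma chain itself, and its single region lay on the promoter at chrX:98463485-98463844, with 42.5 and 36.4 RPKM of RelB in WT at 0 h and 1 h, 31.9 RPKM of RelA in WT and 32.8 RPKM in RelBko, 1.91 and 1.85 RPKM of RelB in RelBko at 0 h and 1 h, and 1.47 RPKM of input. RelB and both RelA libraries were within 1.4-fold of each other there. The remaining chains of this group, Il2rb (the beta chain of the IL-2 and IL-15 receptors) and Il9r, stayed under 20 RPKM in all libraries, with at most 17.8 RPKM at Il2rb and 12.2 RPKM at Il9r.

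In the IL-1 receptor family, Il1r1 encodes the signalling receptor of IL-1 and Il1r2 a decoy that binds IL-1 without signalling. The Il1r1 region at chr1:40297327-40297682, in an intron 15579 bp downstream of the TSS, had 45.8 and 67.8 RPKM of RelB in WT at 0 h and 1 h, 54.8 RPKM of RelA in WT and 61.2 RPKM in RelBko, 4.98 and 3.31 RPKM of RelB in RelBko at 0 h and 1 h, and 0.852 RPKM of input. For Il1r2 at chr1:40121424-40121802, 19946 bp upstream of the TSS, WT cells gave 46.4 RPKM of RelB at 0 h and 61.8 RPKM after LPS, RelA was 33.6 RPKM in WT and 30.0 RPKM without RelB, RelB in RelBko 4.98 and 4.06 RPKM, and the input 1.60 RPKM. RelB was higher at 1 h than at 0 h at both, by 1.48-fold (95% interval 1.32 to 1.66) and 1.33-fold (95% interval 1.19 to 1.49).

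Il1rl1 encodes ST2, the receptor of the alarmin IL-33, and Il1rl2 the receptor of the IL-36 cytokines. At the Il1rl1 region, chr1:40469916-40470085 and 16415 bp upstream of the TSS, RelA was 53.8 RPKM in WT and 48.1 RPKM in RelBko, RelB 61.2 and 71.6 RPKM in WT at 0 h and 1 h and 6.39 and 2.72 RPKM in RelBko, and the input 0.446 RPKM. At that of Il1rl2, chr1:40412796-40413152 in an intron 31540 bp downstream of the TSS, WT cells gave 53.9 RPKM of RelB at 0 h and 69.1 RPKM after LPS, RelA was 60.7 RPKM in WT and 59.3 RPKM without RelB, RelB in RelBko 6.73 and 4.74 RPKM, and the input 1.06 RPKM. Ranked by the mean signal of these single regions, Il1rl2 and Il1rl1 were among the 8 highest of the 35 genes.

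Il18r1 and Il18rap encode both chains of the IL-18 receptor. The Il18r1 region at chr1:40526666-40527041 (4002 bp downstream, intron) had 43.8 and 23.6 RPKM of RelB in WT at 0 h and 1 h, 11.5 RPKM of RelA in WT and 9.44 RPKM in RelBko, 2.13 and 0.682 RPKM of RelB in RelBko at 0 h and 1 h, and 1.01 RPKM of input. At the strongest Il18rap region, chr1:40581160-40581543 (9144 bp downstream, intron), RelA was 29.0 RPKM in WT and 32.2 RPKM in RelBko, RelB 45.5 and 41.6 RPKM in WT at 0 h and 1 h and 3.72 and 1.34 RPKM in RelBko, and the input 1.97 RPKM. Il18r1 thus had more RelB than RelA in WT at 1 h, by 2.05-fold (95% interval 1.58 to 2.69), just past the 2-fold limit. Il1rap, the accessory chain shared by the receptors of IL-1, IL-33 and IL-36, lies apart on chromosome 16, and its promoter region at chr16:26581514-26581868 showed the opposite order. There WT cells gave 12.5 RPKM of RelB at 0 h and 23.4 RPKM after LPS, RelA was 39.4 RPKM in WT and 38.9 RPKM without RelB, RelB in RelBko 2.74 and 1.73 RPKM, and the input 0.854 RPKM, so that RelA was 1.68-fold (95% interval 1.40 to 2.02) above RelB in WT at 1 h.

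Among the receptors of the IL-6 and IL-12 family, Il6ra encodes the IL-6 binding chain that pairs with gp130. Its region at chr3:89715120-89715469, in an intron 1824 bp downstream of the TSS, had 95.4 and 86.0 RPKM of RelB in WT at 0 h and 1 h, 74.7 RPKM of RelA in WT and 70.7 RPKM in RelBko, 13.1 and 4.25 RPKM of RelB in RelBko at 0 h and 1 h, and 1.52 RPKM of input, including the highest RelB value of any receptor region in RelBko at 0 h. Il31ra encodes the receptor of IL-31, a T cell cytokine linked to itch. Its region at chr13:113331961-113332329 (38725 bp downstream, intron) had more RelB than RelA, where WT cells gave 82.2 RPKM of RelB at 0 h and 81.1 RPKM after LPS, RelA was 42.4 RPKM in WT and 43.1 RPKM without RelB, RelB in RelBko 4.49 and 3.47 RPKM, and the input 1.64 RPKM.

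Il12rb2 and Il23r encode the chains particular to IL-12 and to IL-23, which pair with Il12rb1. At the Il12rb2 promoter, chr6:67325996-67326348, RelA was 36.6 RPKM in WT and 27.6 RPKM in RelBko, RelB 16.9 and 14.2 RPKM in WT at 0 h and 1 h and 6.64 and 2.03 RPKM in RelBko, and the input 1.504 RPKM. At the strongest Il23r region, chr6:67402174-67402511 in an exon 39507 bp downstream of the TSS, WT cells gave 10.8 RPKM of RelB at 0 h and 28.8 RPKM after LPS, RelA was 14.3 RPKM in WT and 12.2 RPKM without RelB, RelB in RelBko 2.03 and 0.910 RPKM, and the input 0.673 RPKM. In WT at 1 h RelA exceeded RelB at this Il12rb2 promoter region, by 2.58-fold (95% interval 2.09 to 3.21). RelB exceeded RelA at this Il23r region, by 2.02-fold (95% interval 1.58 to 2.60). Il27ra (the IL-27 receptor), Il12rb1 and Il11ra1 (the IL-11 receptor) stayed under 20 RPKM, with at most 18.9, 12.5 and 6.61 RPKM.

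The common beta chain receptors were represented by Il3ra and Il5ra. At the Il3ra promoter region, chr14:15178138-15178739, WT cells gave 20.7 RPKM of RelB at 0 h and 23.3 RPKM after LPS, RelA was 27.8 RPKM in WT and 29.0 RPKM without RelB, RelB in RelBko 4.75 and 2.98 RPKM, and the input 0.756 RPKM. The Il5ra region at chr6:106675684-106676047 (23166 bp downstream, intron) had 25.4 and 31.5 RPKM of RelB in WT at 0 h and 1 h, 26.6 RPKM of RelA in WT and 30.5 RPKM in RelBko, 2.67 and 1.27 RPKM of RelB in RelBko at 0 h and 1 h, and 1.46 RPKM of input. In both, the WT RelB and both RelA values lay between 20 and 32 RPKM.

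The IL-10 and class II receptors include Il10ra, the IL-10 binding chain, and Il10rb, which the receptors of IL-10, IL-22 and the lambda interferons share. At chr9:45080272-45080640, 3224 bp upstream of the Il10ra TSS, RelA was 22.3 RPKM in WT and 33.3 RPKM in RelBko, RelB 40.1 and 36.3 RPKM in WT at 0 h and 1 h and 4.80 and 2.64 RPKM in RelBko, and the input 2.05 RPKM. At chr16:91407000-91407339, in an intron 689 bp downstream of the Il10rb TSS, WT cells gave 18.8 RPKM of RelB at 0 h and 30.5 RPKM after LPS, RelA was 39.1 RPKM in WT and 44.9 RPKM without RelB, RelB in RelBko 2.02 and 2.11 RPKM, and the input 1.78 RPKM. Il10ra had more RelB than RelA in WT at 1 h, by 1.63-fold (95% interval 1.34 to 1.98), and Il10rb had less, with RelA 1.28-fold (95% interval 1.08 to 1.53) above RelB.

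Il20ra and Il20rb encode the chains of the receptor of IL-19, IL-20 and IL-24. For Il20ra at chr10:19411649-19411989 (20574 bp upstream), WT cells gave 40.2 RPKM of RelB at 0 h and 43.8 RPKM after LPS, RelA was 29.0 RPKM in WT and 28.8 RPKM without RelB, RelB in RelBko 6.21 and 3.46 RPKM, and the input 2.22 RPKM. The Il20rb region at chr9:100335597-100336068 (51060 bp downstream) had 32.7 and 41.1 RPKM of RelB in WT at 0 h and 1 h, 48.1 RPKM of RelA in WT and 49.3 RPKM in RelBko, 3.76 and 1.63 RPKM of RelB in RelBko at 0 h and 1 h, and 1.61 RPKM of input. Il22ra1 encodes the membrane receptor of IL-22, known mainly from epithelium, and Il22ra2 a soluble IL-22 binding protein that dendritic cells are known to make. At Il22ra1, chr4:135269350-135269997 and 14401 bp upstream of the TSS, RelA was 7.02 RPKM in WT and 3.35 RPKM in RelBko, RelB 35.4 and 25.1 RPKM in WT at 0 h and 1 h and 2.38 and 0.396 RPKM in RelBko, and the input 0.702 RPKM. At Il22ra2, chr10:19379797-19380164 and 38146 bp downstream of the TSS, WT cells gave 29.3 RPKM of RelB at 0 h and 29.7 RPKM after LPS, RelA was 17.0 RPKM in WT and 17.1 RPKM without RelB, RelB in RelBko 2.49 and 1.53 RPKM, and the input 0.412 RPKM. Both IL-22 binding chains had more RelB than RelA in WT at 1 h.

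In the IL-17 receptor family, Il17ra encodes a chain that several receptors of IL-17 cytokines share. At chr6:120420716-120421056, in an intron 7671 bp downstream of its TSS, WT cells gave 38.1 RPKM of RelB at 0 h and 54.0 RPKM after LPS, RelA was 46.3 RPKM in WT and 51.4 RPKM without RelB, RelB in RelBko 9.56 and 3.01 RPKM, and the input 1.11 RPKM. The Il17rc region at chr6:113415958-113416312, 5314 bp upstream of the TSS and in an exon of the annotation, had 61.4 and 41.8 RPKM of RelB in WT at 0 h and 1 h, 25.5 RPKM of RelA in WT and 21.8 RPKM in RelBko, 3.87 and 2.02 RPKM of RelB in RelBko at 0 h and 1 h, and 1.28 RPKM of input. Il17rd, a chain also known as a regulator of growth factor signalling, had a region at chr14:27855509-27855862 (intron), where RelA was 27.5 RPKM in WT and 28.2 RPKM in RelBko, RelB 26.9 and 30.2 RPKM in WT at 0 h and 1 h and 4.69 and 3.62 RPKM in RelBko, and the input 1.29 RPKM. Il17re, the IL-17C receptor, had the lowest mean signal of the 35 genes. The order of the genes by mean signal began with Il21r, Il6ra, Il2ra, Il15ra and Il7r.

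RelB signal at the receptor genes was lower in RelBko than in WT. Regions enriched in at least 1 of both libraries were compared, on the log2 ratio of RPKM + 0.5, which understates the change of weak regions, and were called at 2-fold or more. At 1 h 254 receptor regions were compared, of which 251 were higher in WT than in RelBko, against a background of 95.9% of all compared regions, and 0 were lower, against 0.128%. At 0 h 240 were compared, of which 222 were higher in WT, against 86.0%, and 0 were lower, against 0.504%. All 254 regions compared at 1 h and 239 of the 240 at 0 h were enriched in WT. They passed the filter through the side that is high, so the counts are read only beside the background share, which rests on the same filter. Without the filter, of 276 regions 259 were higher and 0 lower at 1 h, and 231 higher and 1 lower at 0 h. The median log2 ratio of the receptor regions was 2.90 at 1 h and 2.13 at 0 h, against 2.47 and 1.85 over all regions. With the median ratio of all compared regions set to 1, which removes these shifts of 2.47 and 1.85, the receptor regions split into 73 higher and 14 lower at 1 h and into 62 higher and 12 lower at 0 h.

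By gene, the region of highest signal was higher in WT at 1 h for 34 of the 35 genes, the exception being Il17re, and at 0 h for 32 of the 34 compared, whereas under the median ratio scaling it was higher for 25 and lower for Il17re at 1 h and higher for 21 and lower for Il12rb1 and Il17re at 0 h. Over all genes the same choice of region gave 97.9% higher at 1 h and 85.7% at 0 h. All 81 compared regions of the gamma chain group, all 33 of the IL-10 group and all 9 of the beta chain group were higher in WT at 1 h, as were 78 of 79 of the IL-1 group, 36 of 37 of the IL-6 and IL-12 group and 14 of 15 of the IL-17 group. Family medians lay between 2.66 (beta chain) and 3.08 (gamma chain) on the log2 scale.

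On the log2 scale of RPKM + 0.5, which with a minimum of 4 RPKM in 1 of both libraries ranks the regions named here and below, the 5 largest differences at 1 h were at Il21r, Il13ra1, Il22ra1, Il7r and Il18rap. At a further Il21r region, chr7:132766812-132767149 in an intron 20037 bp downstream of the TSS, WT cells gave 9.11 RPKM of RelB at 0 h and 29.6 RPKM after LPS, RelA was 17.7 RPKM in WT and 4.20 RPKM without RelB, RelB in RelBko 1.02 and 0.303 RPKM, and the input 1.35 RPKM, a ratio of WT to RelBko at 1 h of 97.4-fold (95% interval 26.7 to 808). That interval is wide because RelBko held 2 reads there. At Il13ra1, chrX:33640575-33641036 and 11298 bp upstream of the TSS, RelA was 12.3 RPKM in WT and 8.04 RPKM in RelBko, RelB 27.3 and 32.5 RPKM in WT at 0 h and 1 h and 1.86 and 0.555 RPKM in RelBko, and the input 0.821 RPKM. At Il22ra1, Il7r and Il18rap the ratios were those of the regions described above, 63.5-fold (95% interval 27.0 to 197), 28.3-fold (95% interval 14.2 to 66.1) and 31.1-fold (95% interval 16.8 to 65.4).

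On the same scale the 5 largest differences at 0 h were at Il15ra, with a pair of regions, and at Il18rap, Il2rg and Il1r2. The Il15ra region at chr2:11635104-11635411 (7918 bp downstream, intron) had 47.2 and 21.8 RPKM of RelB in WT at 0 h and 1 h, 17.5 RPKM of RelA in WT and 12.1 RPKM in RelBko, 1.49 and 2.16 RPKM of RelB in RelBko at 0 h and 1 h, and 0.492 RPKM of input. The other one, at chr2:11612769-11613171 (13950 bp upstream, in a 3′ UTR of the annotation), had 34.3 RPKM of RelB in WT and 1.28 RPKM in RelBko at 0 h, a ratio of 26.8-fold (95% interval 14.01 to 59.0). At a second Il18rap region, chr1:40586492-40586841 (14459 bp downstream, intron), RelB in WT at 0 h reached 83.4 RPKM, 23.2-fold (95% interval 15.2 to 37.2) above RelBko. At Il2rg and at Il1r2 36222 bp downstream of the TSS (chr1:40178970-40179351) the ratios were 22.3-fold (95% interval 12.7 to 43.5) and 20.1-fold (95% interval 12.8 to 33.5). The Il2rg promoter thus ranked among the largest differences of the family although its level was in the middle of the 35 genes.

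**Figure D3:**
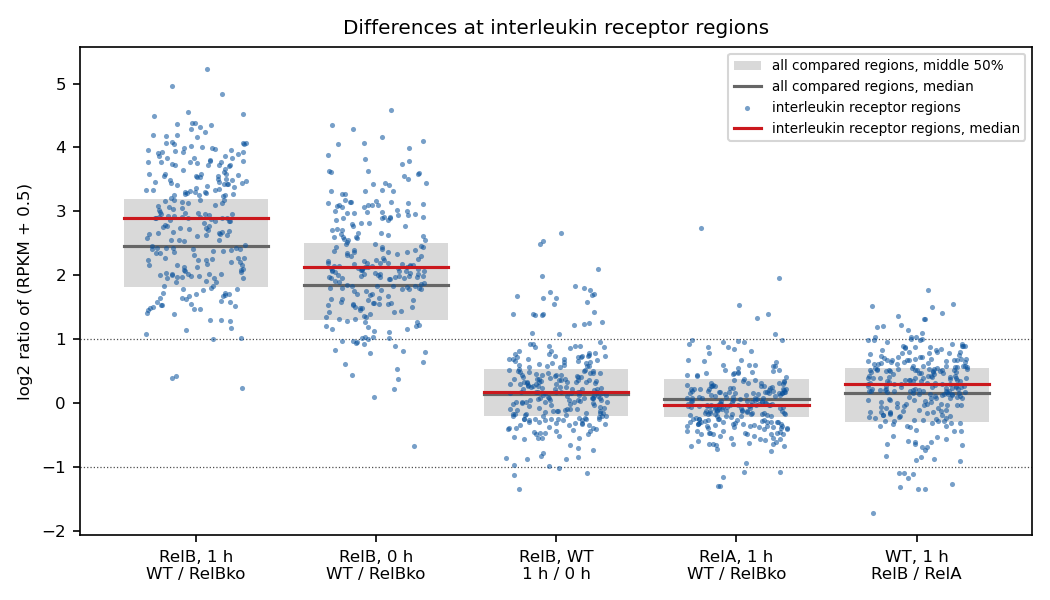
Log2 ratio of RPKM + 0.5 (vertical axis) for each compared receptor region (points) in the 5 comparisons, with the median of the receptor regions in red, the median of all compared regions as a dark grey line, their middle 50% as a grey box and the 2-fold limits dotted. Nearly all points of both RelB comparisons of WT with RelBko lie above the upper limit, with medians of 2.90 and 2.13, and most points of the other 3 lie between the limits.

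After 1 h with LPS, RelB in WT was higher at 28 of 261 compared receptor regions, which belonged to 18 genes, against a background of 11.0%, and lower at 4, against 1.68%. These shares are close to those of all regions. The median log2 ratio was 0.18, against 0.14 over all regions, and with the median ratio set to 1 the split was 26 higher and 9 lower. By gene, only Il23r and Il11ra1 were higher at their region of highest signal among the 35 genes, with 33 within 2-fold, and with the median ratio set to 1 Il18r1 was lower besides. Over all genes 6.58% were higher and 1.09% lower by that choice. The RelB antibody signal in RelBko fell over the same hour, with a median log2 ratio of -0.40 at the receptor regions and -0.43 over all regions.

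Of the 28 regions with more RelB at 1 h, 19 lay in introns (67.9%, against 49.3% of all such regions), and only 2 were promoters. On the log2 scale of RPKM + 0.5, and among regions with 4 RPKM or more, Il23r had the largest, at chr6:67402555-67402882 in an intron 39131 bp downstream of the TSS, where WT cells gave 3.74 RPKM of RelB at 0 h and 26.4 RPKM after LPS, RelA was 14.04 RPKM in WT and 13.0 RPKM without RelB, RelB in RelBko 0.872 and 1.09 RPKM, and the input 0.693 RPKM, a rise of 7.06-fold (95% interval 5.09 to 10.0). The adjoining exonic region described above rose by 2.67-fold (95% interval 2.16 to 3.32). The Il23r promoter region 89 bp upstream of the TSS moved the other way, from 29.4 to 14.5 RPKM, within the 2-fold limit.

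Il2ra had the next, at chr2:11578043-11578210 in an intron 13707 bp downstream of the TSS, where RelA was 23.7 RPKM in WT and 32.8 RPKM in RelBko, RelB 3.90 and 24.9 RPKM in WT at 0 h and 1 h and 2.04 and 4.88 RPKM in RelBko, and the input 0.903 RPKM, a rise of 6.38-fold (95% interval 4.06 to 10.5). A second Il2ra region, 4608 bp downstream of the TSS, went from 12.9 to 38.7 RPKM. It was picked out after its values were seen. The region of highest signal at Il2ra, between both, went from 64.3 to 88.6 RPKM, so that the fold differed between regions of 1 gene.

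At Il31ra the region 43462 bp downstream of the TSS (chr13:113327245-113327572, intron) rose from 5.13 to 23.5 RPKM, by 4.58-fold (95% interval 3.42 to 6.21), with RelA at 18.2 RPKM in WT and 24.9 RPKM in RelBko. Gains at regions of lower signal were at Il3ra 49028 bp downstream of the TSS (chr14:15227881-15228194), from 0.363 to 4.37 RPKM or 12.0-fold (95% interval 4.34 to 46.3), and at Il1r1 15858 bp downstream of the TSS (chr1:40339109-40339470), from 1.73 to 7.48 RPKM or 4.32-fold (95% interval 2.66 to 7.28). The Il1r1 region carrying 45.8 and 67.8 RPKM is a different one of the gene's 19.

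The 4 regions with lower RelB at 1 h were at Il18rap, Il4ra, Il15ra and Il7r. At Il18rap 14459 bp downstream of the TSS, WT cells gave 83.4 RPKM of RelB at 0 h and 32.4 RPKM after LPS, RelA was 17.4 RPKM in WT and 9.18 RPKM without RelB, RelB in RelBko 3.59 and 1.90 RPKM, and the input 1.08 RPKM, and the ratio of 1 h to 0 h was 0.388-fold (95% interval 0.342 to 0.441). At Il15ra 7918 bp downstream of the TSS RelB went from 47.2 to 21.8 RPKM, a ratio of 0.462-fold (95% interval 0.389 to 0.547). The Il4ra region 18410 bp downstream of the TSS (chr7:132714053-132714360) went from 4.07 to 1.60 RPKM, and the Il7r region 67341 bp upstream of the TSS (chr15:9526888-9527057) from 11.4 to 5.38 RPKM. The Il18rap and Il15ra regions were also among those with the largest excess of WT over RelBko at 0 h, a comparison that shares the WT library at 0 h with this one.

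RelA signal at the receptor regions differed little between WT and RelBko. Of 253 compared regions 6 were higher in WT, against 4.94% of all compared regions, and 5 were lower, against 1.30%. The median log2 ratio was -0.04, against 0.06 over all regions. By gene, 33 of the 34 regions compared were within 2-fold, and the 1 that was higher in WT, at Il17re, had 2.90 RPKM in WT against 0.798 RPKM in RelBko. Over all genes 2.85% were higher in WT and 0.498% lower. Counting error alone did not cover the difference at 7 of the 35 genes, 5 of them higher and 2 lower in WT. The share of all genes beyond counting error is not given here, so this count does not set the receptor genes apart. The lower ones were Il2ra and Il10ra, with ratios of 0.776-fold (95% interval 0.681 to 0.884) and 0.672-fold (95% interval 0.547 to 0.822). The higher ones were Il12rb2, Il13ra1, Il22ra1, Il9r and Il17re. At Il22ra1 the ratio was 2.10-fold (95% interval 1.46 to 3.03), and the log2 ratio with the pseudocount stayed under the 2-fold limit.

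**Figure D4:**
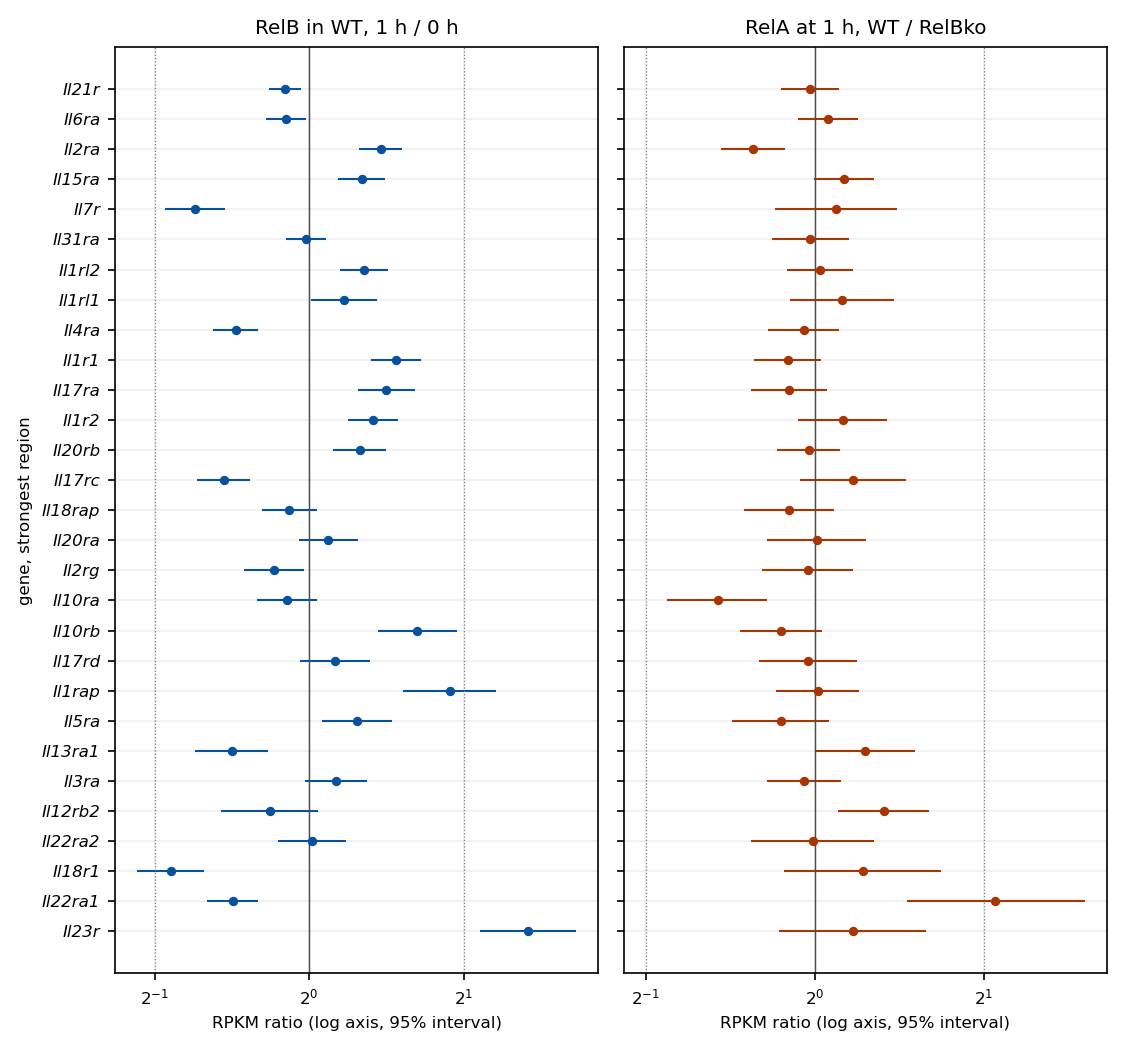
Ratio of RPKM (log axis) with its exact 95% interval at the region of highest signal of the 29 receptor genes that reached 20 RPKM, for RelB in WT at 1 h against 0 h (left) and RelA at 1 h in WT against RelBko (right), with 2-fold limits dotted. On the left Il23r lies above the limit, while genes such as Il1r1 and Il10rb lie above 1 and others such as Il7r, Il4ra, Il17rc and Il18r1 lie below it, and on the right all intervals but those of Il2ra, Il10ra, Il13ra1, Il12rb2 and Il22ra1 include 1.

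At the Il21r region 20037 bp downstream of the TSS, RelA was 17.7 RPKM with RelB present and 4.20 RPKM in RelBko, a ratio of 4.21-fold (95% interval 2.83 to 6.39). The Il21r region of highest signal, about 15 kb away from it, had 79.1 and 80.6 RPKM. Il3ra 76793 bp downstream of the TSS (chr14:15255630-15255975) had 4.44 RPKM in WT but 0.241 RPKM in RelBko, where 2 reads were counted, and Il4ra 20410 bp downstream of the TSS (chr7:132716038-132716375) had 4.54 and 1.23 RPKM. Of the 6 receptor regions called higher in WT for RelA, the one at Il21r was the only one above 10 RPKM.

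RelA was lower in WT than in RelBko at Il6ra 32950 bp downstream of the TSS (chr3:89683957-89684380, intron), with 8.98 RPKM against 22.9 RPKM, a ratio of 0.392-fold (95% interval 0.294 to 0.516). RelB in WT rose there from 3.16 to 11.3 RPKM with LPS. The others of 4 RPKM or more were Il22ra1 10177 bp downstream of the TSS (chr4:135294088-135294415, 1.73 and 4.45 RPKM), Il7r 67341 bp upstream (7.02 and 15.5 RPKM) and Il1r1 36296 bp upstream (chr1:40245423-40245836, 3.43 and 7.76 RPKM). The strongest Il6ra region, near the TSS, had 74.7 RPKM and 70.7 RPKM, so the regions of this gene did not move together.

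In WT at 1 h, RelB and RelA occupied the receptor regions at similar relative levels. Of 265 compared regions 18, in 14 genes, had more RelB, against 7.21% of all compared regions, and 9, in 8 genes, had more RelA, against 7.45%. The median log2 ratio of RelB to RelA was 0.30, against 0.16 over all regions, and with the median ratio set to 1 the split turned to 11 with more RelB and 13 with more RelA. RPKM of different antibodies also carries the yield of each antibody, so the ratio ranks regions and does not measure how many molecules of each protein were bound. By position, the median log2 ratio was -0.02 at receptor promoters, 0.28 in introns and 0.40 between genes, against -0.10, 0.20 and 0.23 over all regions of those classes.

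At 2-fold or more on RPKM + 0.5, RelB exceeded RelA by gene at Il22ra1, Il18r1 and Il11ra1. The reverse held at the regions of highest signal of Il12rb2 and Il9r. By the same choice of region 5.41% and 6.66% of all genes were so called. Il23r, at 2.02-fold without the added 0.5, fell within the limit. With the median ratio of all compared regions, or of regions without enrichment, set to 1, Il22ra1 and Il11ra1 kept the call and Il18r1 fell within 2-fold, as it did with a pseudocount of 1 RPKM. Among single regions with 4 RPKM or more, the Il22ra1 region described above had the largest log2 difference, a ratio of 3.58-fold (95% interval 2.82 to 4.60), with 25.1 RPKM of RelB and 7.02 RPKM of RelA. At the Il11ra1 promoter (chr4:41706660-41706973) RelB was 6.61 RPKM and RelA 1.99 RPKM, and RelB had been 1.54 RPKM at 0 h. At Il13ra1 11298 bp upstream of the TSS the ratio was 2.64-fold (95% interval 2.12 to 3.32). The called region with the most RelB, picked out after its values were seen, was at Il7r 40662 bp upstream of the TSS, with 76.4 RPKM of RelB and 37.8 RPKM of RelA. This is just past the 2-fold limit, and either rescaling to a median ratio puts the region within it. Il12rb2 5199 bp upstream of the TSS (chr6:67331206-67331556) had 5.51 RPKM of RelB and 1.62 RPKM of RelA, and Il3ra 49028 bp downstream of the TSS had 4.37 and 1.45 RPKM. Il12rb2 thus had a region with more RelB upstream and a promoter with more RelA, 5 kb apart. Of its 5 compared regions, 3 were called for more RelB and 1, the promoter, for more RelA. Of the 3 compared at Il9r, 1 was called for more RelB and 1 for more RelA.

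On the log2 scale of RPKM + 0.5 the largest excess of RelA was at a weak region of Il1rap 46148 bp downstream of the TSS (chr16:26627776-26628103), with 1.18 RPKM of RelB and 5.03 RPKM of RelA, a ratio of 0.235-fold (95% interval 0.106 to 0.484). On that scale it was followed by the Il12rb2 promoter, by Il10ra 11493 bp upstream of the TSS (chr9:45088562-45088889, 1.93 and 5.37 RPKM), by the Il1rl2 promoter (chr1:40381179-40381552, 3.10 and 7.60 RPKM) and by Il9r 905 bp downstream of the TSS (chr11:32099182-32099567, 5.47 and 12.2 RPKM). Of these 5 regions only the Il12rb2 promoter passed 20 RPKM of RelA.

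**Figure D5:**
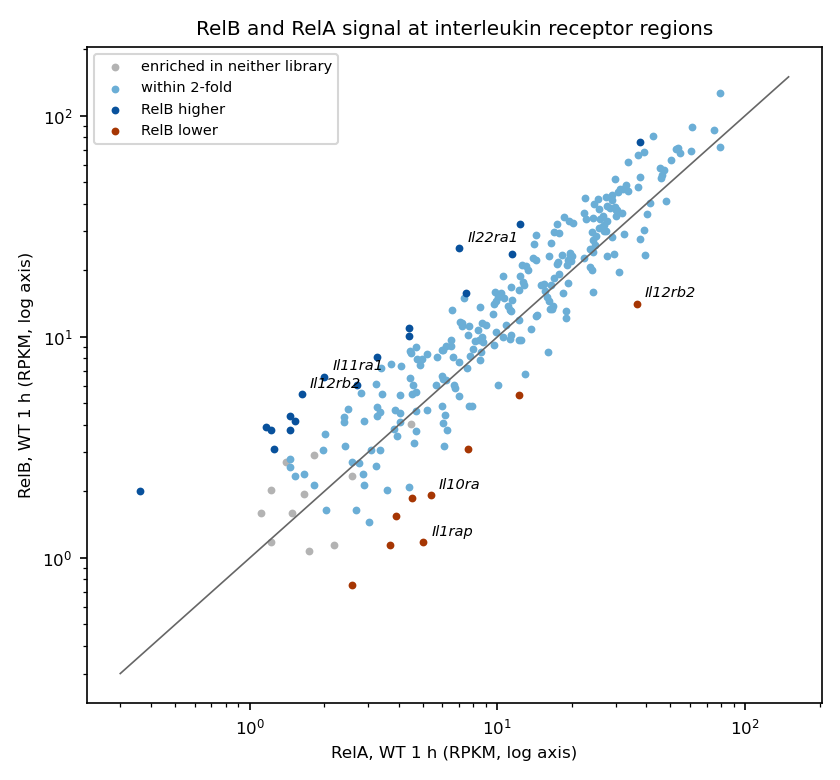
RelB (vertical axis) against RelA (horizontal axis) in WT at 1 h, both in RPKM on log axes, for the 276 receptor regions, coloured by call, with a line at equal values. The receptor regions follow the line, with 18 regions called for more RelB, among them Il22ra1, and 9 called for more RelA, among them the Il12rb2 promoter.

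Across the 276 receptor regions the rank correlation (Spearman) of RelB and RelA in WT at 1 h was 0.93, against 0.88 over all 93611 regions. It was 0.96 for RelA in WT and RelBko, 0.91 for RelB in WT at 0 h and 1 h, 0.72 for RelB in WT and RelBko at 1 h and 0.35 for RelB in WT at 1 h and the input. Over all regions the last of these was 0.43. These values are a description, since the regions of 1 library share its preparation and the accessibility and base composition of each region enter every library.

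The genes outside the family whose region of highest signal was most like that of Il21r were Pla2g4a, Anxa13, Eya3, Mir5123 and Bhlhe40. Their Euclidean distances over log2(RPKM + 0.5) in the 6 ChIP libraries were 0.21, 0.23, 0.28, 0.30 and 0.32, against a median of 6.57 over 18178 genes. The Pla2g4a region, for instance, had 125 and 134 RPKM of RelB in WT at 0 h and 1 h and 82.0 RPKM of RelA in WT.

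Partners and relatives of these receptors were read from lists of genes, each at its region of highest signal. Of the shared and related receptor chains whose symbols fall outside the naming rule, all 10 had a region. All 10 were higher for RelB in WT than in RelBko at both times. By the same choice of region, 97.9% of all genes were higher at 1 h and 85.7% at 0 h. None of the 10 passed 2-fold in the other 3 comparisons. Few of all genes did either. For RelB after LPS 6.58% were higher and 1.09% lower, and for RelA 2.85% were higher in WT and 0.498% lower. For RelB against RelA the shares were 5.41% and 6.66%. The absence of calls thus does not set these chains apart. The highest were Ifngr2, a chain of the interferon gamma receptor (62.3 RPKM of RelB and 83.8 RPKM of RelA in WT at 1 h), Sigirr, an inhibitory receptor of the IL-1 family (67.2 and 65.4 RPKM), and Csf2rb2, a beta chain of the IL-3 receptor (60.7 and 57.8 RPKM).

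All 11 JAK and STAT genes were likewise higher for RelB in WT than in RelBko at both times, against the same 97.9% and 85.7% of all genes. They were within 2-fold in the other 3 comparisons, which does not set them apart given the low shares of all genes listed above. The kinase gene Jak2 had 99.1 RPKM of RelB and 143 RPKM of RelA at its promoter in WT at 1 h, Stat5a 109 and 89.1 RPKM, and the kinase gene Tyk2 69.1 and 117 RPKM. The median log2 ratio of RelB to RelA over this list was -0.23, against 0.10 over all genes and 0.27 over the receptor genes. These sets were not matched for position, and the Jak2 and Stat5a regions are promoters. Over all regions the median ratio was -0.10 at promoters, 0.20 in introns and 0.23 between genes. Whether the list differs beyond position was not tested.

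Of the 13 genes of adaptors, kinases and soluble inhibitors of the IL-1 and IL-17 receptors, 13 were higher for RelB in WT than in RelBko at 1 h, against 97.9% of all genes, and 10 at 0 h, against 85.7%. By 2-fold or more, Myd88, the adaptor of IL-1 and Toll-like receptors, and Tollip, a regulator of the same pathway, gained RelB after LPS. Irak3, an inhibitory kinase homologue, had more RelA than RelB by the same limit. These were 2 of 13 and 1 of 13, against 6.58% and 6.66% of all genes. None of the 13 passed 2-fold in RelA between WT and RelBko, against 2.85% of all genes higher in WT and 0.498% lower. The highest were Il1rn, the IL-1 receptor antagonist (62.8 RPKM of RelB and 51.9 RPKM of RelA in WT at 1 h), Traf6, a ubiquitin ligase (65.5 and 39.3 RPKM), and Map3k7, the kinase TAK1 (41.4 and 53.0 RPKM).

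Of the 31 ligands 29 had a region. RelB was higher in WT than in RelBko for all 27 compared at 1 h, against 97.9% of all genes, and all 25 compared at 0 h, against 85.7%. After LPS RelB in WT was higher at 7 of 28, namely Csf2, Ebi3, Il11, Il12a, Il20, Il24 and Il25, and lower at 0. By the same choice of region 6.58% of all genes were higher and 1.09% lower, and 2 of the 35 receptor genes were higher and 0 lower. RelA was within 2-fold between WT and RelBko at all 28 compared, against 2.85% of all genes higher in WT and 0.498% lower. By 2-fold or more, Il13 and Il21 had more RelB than RelA, and Il17f and Tslp more RelA. That was 2 of 28 each way, against 5.41% and 6.66% of all genes. The highest ligand genes were Il1a (149 and 142 RPKM of RelB in WT at 0 h and 1 h), Il12b, the shared subunit of IL-12 and IL-23 (115 and 135 RPKM), and Ebi3, a subunit of IL-27 (35.6 and 101 RPKM). The difference between ligands and receptors was not tested.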

How the data were processed

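The authors deposited RPKM values, per the file headers, for 7 ChIP-seq libraries over 93611 regions, with the nearest gene and the distance to its TSS in bp. A second deposited file of coordinates without measurements was not used. Per the submitters' processing notes, HISAT2, HOMER, bedtools and the build mm9 were used, with versions and the choice of regions not given in the sources used here. Within each library, all RPKM values times region length (100%, within 0.01 read) were whole multiples of 1 step, which gave reads per region. No region had fewer than 1 read, so read numbers may be 1 too high.

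Log2 ratios used RPKM + 0.5. Regions at 2 RPKM or more and 2-fold or more over the input, with 0.5 RPKM added to both, were called enriched. Those enriched in at least 1 library of a comparison were compared and called at 2-fold. Groups were taken from the sample titles. With 1 library per group no test was run, so the design gives differences of libraries and not of conditions. The depth behind a value is the reads of its region, and exact 95% intervals of read ratios cover counting error only. Named were genes reaching 20 RPKM in a WT ChIP library. Up to 5 called regions per direction and comparison with 4 RPKM or more were named too. Also named were the 3 highest genes of each partner list (shared and related chains, JAK and STAT genes, adaptors, ligands). So were the 5 genes most like Il21r. Marker lists covered dendritic cells, macrophages, neutrophils, B cells, T cells and mast cells. Members and lists were chosen with earlier results of these data known. All 35 symbols were found in a RefSeq table of GRCm38.p6, used for names and promoter sequences. Of 40 symbols there that match the naming rule, Il11ra2, Il13ra2, Il17rb, Il1rapl1 and Il1rapl2 had no region within 100 kb. Alternatives were a pseudocount of 1, no filter, 1 read taken off, means over all regions of a gene, and rescaling to the median of compared regions or of regions without enrichment. Computation used Python 3.11.15, pandas 2.3.3, numpy 2.4.6 and scipy 1.17.1, and the scripts were tested on simulated data.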

Additional observations from a re-analysis of the deposited data

How the results depend on the processing

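No paired analysis was possible because each group holds 1 library. Of the 50 counts of called receptor regions under the alternatives, 39 stayed within 1.5 times the reported count. With the median ratio of all compared regions set to 1, RelB in WT against RelBko gave 73 higher and 14 lower at 1 h and 62 higher and 12 lower at 0 h, RelB in WT gave 9 lower after LPS, and RelB against RelA gave 11 higher; this scaling removes the shift shared by all regions. At 0 h, 1 region was lower in WT than in RelBko without the filter on low values, as was 1 with regions without enrichment as the reference. A pseudocount of 1 RPKM left 2 regions lower in RelB after LPS and 3 lower in RelA in WT, and dropping the filter gave 11 with more RelA in WT; the cause of these was not tested. Of 1050 values of single genes under the alternatives, 832 were counted as unchanged, 212 as moved and 6 as reversed. With the mean over all regions of a gene, 24, 19, 16, 5 and 18 of 35 values moved in the 5 comparisons, in the order described above. Among the 1050 values, 48 changed sign. Of these, 42 were values not called as reported, and the 6 that had been called all changed sign with the median ratio set to 1: at 1 h Il2rb (-0.30), Il12rb1 (-0.70), Il9r (-0.76) and Il11ra1 (-0.03), and at 0 h Il12rb2 (-0.57) and Il9r (-0.70), as log2 ratios of RelB in WT to RelBko. Weak regions rest on few reads, such as 2 in RelBko at Il21r 20037 bp downstream of the TSS.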
